A study of Homo sapiens with 2 samples.

Results

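SEPTIN9 and 8 further septin genes (SEPTIN2, SEPTIN4, SEPTIN5, SEPTIN6, SEPTIN7, SEPTIN8, SEPTIN10 and SEPTIN11) held 83 of the 33353 H4R3me2a peaks called in HCT116 cells, and 67 of the 83 lay in SEPTIN9. A peak was assigned to a gene when its summit, the position of highest signal, fell in the gene or within 1 kb of one of its transcription start sites (TSSs). The family was chosen by its peaks, since SEPTIN9 was known to hold many of them, so the peak counts below describe the choice and no test is made on them. H4R3me2a is asymmetric dimethylation of an arginine in the tail of histone H4. The study compared 1 chromatin immunoprecipitation library made with an H4R3me2a antibody with 1 input DNA library, both from untreated HCT116, a human colorectal carcinoma cell line grown under standard conditions. Neither library had a replicate, so no p-value is given here, and the intervals beside shares and counts cover counting error only. RNA and DNA methylation were not analysed here.

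Septins are GTP-binding proteins that assemble into filaments and rings beneath the plasma membrane, at the cleavage furrow of dividing cells and along actin and microtubule bundles. They fall into sequence groups named after SEPTIN2, SEPTIN3, SEPTIN6 and SEPTIN7, and a filament takes its subunits from different groups, with SEPTIN9 standing for the SEPTIN3 group in most cells. SEPTIN9 is transcribed from several promoters into isoforms that share the GTP-binding core and differ at the N terminus. Methylation of the DNA of a CpG island at an internal SEPTIN9 promoter is the basis of a blood test for colorectal cancer. H4R3me2a is written mainly by the methyltransferase PRMT1 and is generally associated with active chromatin.

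The sequences below show what these peaks were made of. The first 3 are among the SEPTIN9 peaks with the strongest statistical support, and the one that follows is the first peak of the gene, at its 5′ end. The other 4 come from 4 further members and include the CpG-rich peak of SEPTIN5 and a peak of SEPTIN6 with no CpG at all. All are read from the GRCh38 genome on the + strand, with each CpG in capitals.
SEPTIN9, intron 3, chr17:77426050-77426295: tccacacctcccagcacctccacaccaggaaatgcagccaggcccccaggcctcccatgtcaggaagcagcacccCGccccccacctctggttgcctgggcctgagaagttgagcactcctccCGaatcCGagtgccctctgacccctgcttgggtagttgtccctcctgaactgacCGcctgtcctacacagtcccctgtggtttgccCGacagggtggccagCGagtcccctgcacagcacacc
SEPTIN9, intron 2, chr17:77382793-77382949: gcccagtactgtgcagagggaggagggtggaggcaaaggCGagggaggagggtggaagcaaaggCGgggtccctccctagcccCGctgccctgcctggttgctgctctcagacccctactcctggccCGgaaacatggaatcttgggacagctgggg
SEPTIN9, intron 2, upstream of SEPTIN9-223, chr17:77379074-77379223: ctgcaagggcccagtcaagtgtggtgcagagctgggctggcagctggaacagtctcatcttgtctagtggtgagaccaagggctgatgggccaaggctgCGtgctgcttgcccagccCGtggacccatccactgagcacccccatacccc
SEPTIN9, 5′ end, chr17:77280839-77280997: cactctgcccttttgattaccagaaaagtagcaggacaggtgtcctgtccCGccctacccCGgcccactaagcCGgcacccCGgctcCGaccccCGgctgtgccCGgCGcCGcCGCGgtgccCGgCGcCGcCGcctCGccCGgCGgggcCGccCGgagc
SEPTIN5, intron 2, chr22:19718798-19718928: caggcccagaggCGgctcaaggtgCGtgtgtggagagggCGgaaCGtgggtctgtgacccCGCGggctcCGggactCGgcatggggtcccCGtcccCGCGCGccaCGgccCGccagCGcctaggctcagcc
SEPTIN8, intron 1, chr5:132773111-132773338: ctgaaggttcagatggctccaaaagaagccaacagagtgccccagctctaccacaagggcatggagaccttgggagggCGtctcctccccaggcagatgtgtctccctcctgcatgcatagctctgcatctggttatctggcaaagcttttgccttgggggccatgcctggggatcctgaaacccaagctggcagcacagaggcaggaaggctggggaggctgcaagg
SEPTIN4, intron 3, chr17:58528960-58529087: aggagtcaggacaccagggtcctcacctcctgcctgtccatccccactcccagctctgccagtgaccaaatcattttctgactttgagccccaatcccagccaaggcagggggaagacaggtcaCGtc
SEPTIN6, intron 2, chrX:119672174-119672307: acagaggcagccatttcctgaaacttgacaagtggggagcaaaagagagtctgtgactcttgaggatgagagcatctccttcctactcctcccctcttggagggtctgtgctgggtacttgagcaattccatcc
The 3 strong SEPTIN9 intervals had a GC content of 64.6%, 65.6% and 62.7%, yet they held only 6, 4 and 2 CpGs. The interval at the 5′ end of SEPTIN9 held 20 CpGs in 159 bp at a GC content of 75.5%, and the SEPTIN5 interval held 15 CpGs in 131 bp at 75.6%. The SEPTIN8 and SEPTIN4 intervals held 1 CpG each at GC contents of 58.8% and 58.6%, and the SEPTIN6 interval none at 51.5%. The CpG-rich intervals were those in CpG islands at start sites.

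SEPTIN9 carried 67 peaks and the other 8 members 16 between them. SEPTIN9 lies on the + strand of chromosome 17 (GRCh38 17:77280569-77500596), is 220.028 kb long and has 48 annotated transcripts with 46 distinct TSSs, more than 99.6% of protein-coding genes, whose median was 5. Its peaks amounted to 30.5 per 100 kb, against 3.37 per 100 kb over the 475 kb of the other members, a ratio of 9.04. SEPTIN9 made up 31.7% of the length of the 9 genes and held 80.7% of their peaks. The 67 peak intervals covered 16241 bp, or 7.38%, of the gene. Of the 9 members 6 had at least 1 peak, while 47.2% of 19970 protein-coding genes did. Nothing is read from that share, since the members were chosen with it known.

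In the SEPTIN2 group of the family, SEPTIN2, a subunit of the core filament, had 1 peak, SEPTIN5, which is abundant in neurons and platelets and acts in exocytosis, had 4, and SEPTIN4, known for its role in the sperm tail and in apoptosis, had 2. In the SEPTIN6 group, SEPTIN8 had 7 and SEPTIN6 had 2, while SEPTIN10 and SEPTIN11 had none. SEPTIN7, the only member of its group and a constant part of septin filaments, had none. A count of 0 allows up to 3 peaks in each of the genes without a peak. The remaining septin genes of the genome, which are not among the 9, had few peaks or none. SEPTIN1 and SEPTIN3 had 2 peaks each, SEPTIN12 had 1 and SEPTIN14 had none.

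The members differ in base composition, and peaks of this list are concentrated in GC-rich sequence. SEPTIN9 has a GC content of 54.8% over its length, against 36.1% in SEPTIN7 and 66.5% in SEPTIN5, the lowest and highest of the others. To set each gene against its own composition, the genome was divided into 400-bp tiles, the rate of peak summits was taken for each GC content, and the rates were summed over the tiles of each gene. This number, from GC content alone, was 18.9 for SEPTIN9, so the 67 observed peaks were 3.55 times as many (95% exact Poisson interval of the ratio 2.75 to 4.51). SEPTIN8 stood similarly far above its number, with 7 peaks against 1.82, a ratio of 3.86 (1.55 to 7.94). SEPTIN4 followed with a ratio of 2.13 (0.258 to 7.69), SEPTIN5 with 1.79 (0.487 to 4.58), SEPTIN2 with 1.70 (0.0431 to 9.47) and SEPTIN6 with 1.32 (0.160 to 4.77). Over the other 8 members together the ratio was 1.80 (1.03 to 2.93), with 16 peaks against 8.87. For SEPTIN7, SEPTIN10 and SEPTIN11 the numbers from GC content were 0.436, 0.554 and 0.780. Neighbouring peaks are not independent of each other, so these intervals are too narrow where peaks cluster, and they serve as a description of counting error and not as a test.

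**Figure D1:**
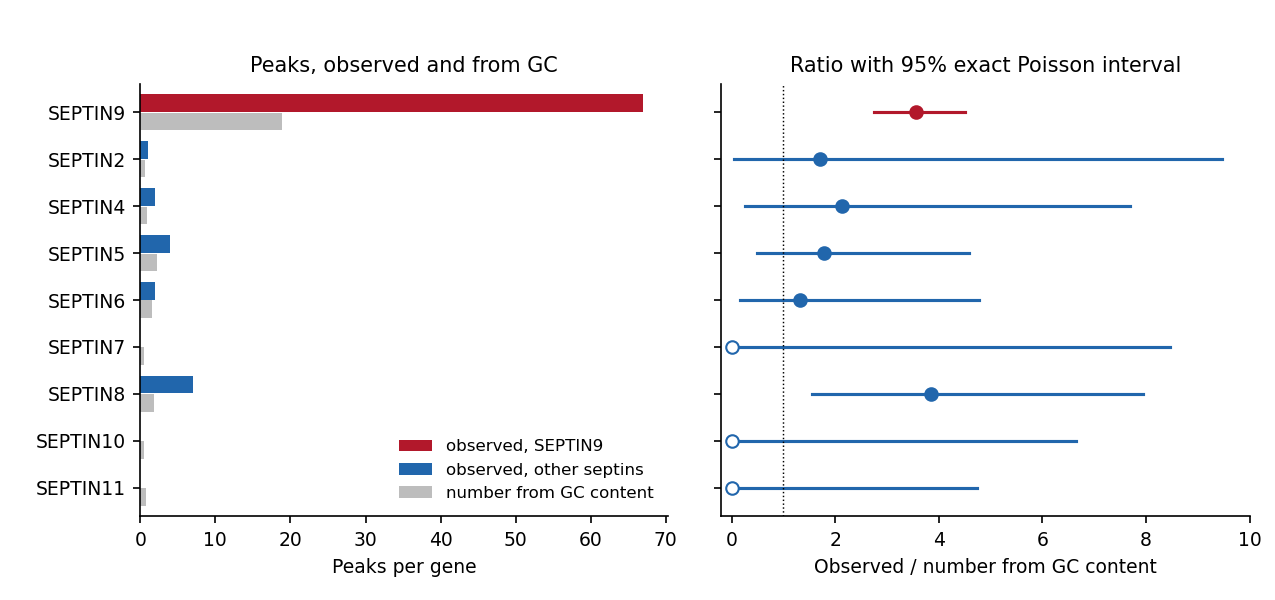
Peaks per septin gene (left, coloured bars), beside the number given by the gene's GC content at genome-wide rates (grey bars), and the ratio of both (right, points) with its 95% exact Poisson interval; open points are genes with 0 peaks and the dotted line marks a ratio of 1. SEPTIN9 (67 peaks against 18.9) and SEPTIN8 (7 against 1.82) have the highest ratios, 3.55 and 3.86.

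Chromosome 17 as a whole was rich in peaks, and so was the neighbourhood of SEPTIN9. With rates taken from chromosome 17 in place of the whole genome, the number for SEPTIN9 was 34.1 and the ratio 1.97 (1.52 to 2.50), while SEPTIN4, also on chromosome 17, had a ratio of 1.15. The 1 Mb before SEPTIN9 held 125 peaks, or 12.5 per 100 kb, and the 1 Mb after it held 105, or 10.5 per 100 kb, while chromosome 17 averaged 4.55 per 100 kb. Against genome-wide GC rates the ratio was 3.28 in the 1 Mb before the gene, not far from the 3.55 of SEPTIN9 itself. In the 1 Mb after the gene the ratio was lower, at 2.24, outside the interval of SEPTIN9 (2.75 to 4.51). Among the protein-coding genes on either side, MGAT5B and SEC14L1 upstream had 9 and 8 peaks, and TNRC6C and TMC6 downstream had 4 and 10. TMC6, a short gene of 25.011 kb with a GC content of 60.5%, was denser in peaks than SEPTIN9, with 39.98 per 100 kb. The median local background of the SEPTIN9 peaks, recovered from their pileup and fold, was also raised, at 2.59 against 2.05 for other peaks of chromosome 17 and 1.54 for all peaks. The part of this regional background in the peak count of SEPTIN9 was not tested.

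Among all protein-coding genes SEPTIN9 ranked second by peak count, after GSE1, a chromatin-associated protein gene of 506.68 kb on chromosome 16 that had 131 peaks. BAIAP2 and BAHCC1, both on chromosome 17 and both shorter than SEPTIN9, came next with 48 and 45 peaks. SEPTIN9 had more peaks than any of 2851 other protein-coding genes from 0.5 to 2 times its length, whose median was 1 and whose highest count was 37. In the 182 of them whose GC content was within 5 percentage points of that of SEPTIN9, the median was 9 and none was denser. Among all 2851 genes of similar length, whatever their GC content, the nearest in density were MEGF6 with 25.9 peaks per 100 kb, RAI1 with 19.2, KDM4B with 19.0, EXD3 with 18.1 and MACROD1 with 17.9. All 5 were as GC-rich or richer, between 56.6% and 62.3%, and had 1.32 to 1.98 times their number from GC content. The ratio of SEPTIN9, 3.55, was above that of all 182 genes of similar length and GC content. It was above that of 81.0% of the other protein-coding genes of chromosome 17, and BAIAP2 and BAHCC1 had ratios of 3.52 and 3.26. By density over genes of every length SEPTIN9 was less exceptional, since 1355 genes had more peaks per 100 kb.

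**Figure D2:**
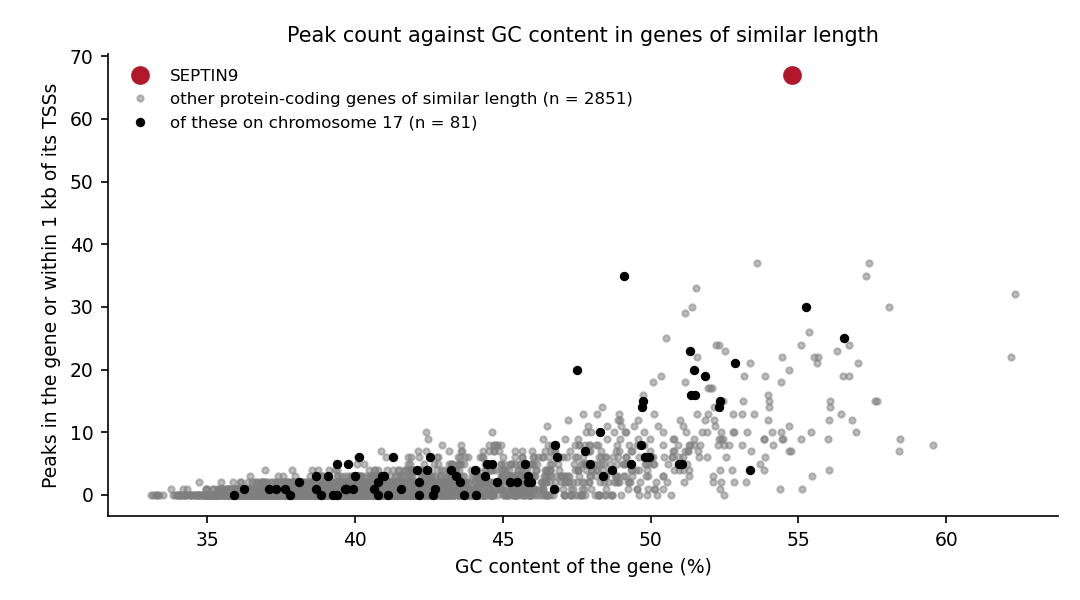
Peaks in the gene or within 1 kb of its TSSs (vertical axis) against the GC content of the gene in % (horizontal axis) for SEPTIN9 (large red point), 2851 other protein-coding genes from 0.5 to 2 times its length (grey) and the 81 of them on chromosome 17 (black). Counts climb with GC content, and SEPTIN9 at 67 peaks stands above the next highest gene at 37.

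Peak density was also compared within classes of GC content. In tiles of 55 to 60% GC, SEPTIN9 had 14.4 summits per 100 tiles (95% exact binomial interval 9.34 to 20.8), the other 8 septin genes 7.69 (2.14 to 18.5), chromosome 17 outside SEPTIN9 6.26 and all chromosomes 3.30. In tiles of 60 to 65% GC, SEPTIN9 had 21.4 (14.3 to 29.9), the other septin genes 28.6 (11.3 to 52.2), chromosome 17 13.2 and all chromosomes 7.70. In the most GC-rich tiles, of 65% and more, SEPTIN9 had 28.6 (13.2 to 48.7), the other septin genes 5.41 (0.661 to 18.2), chromosome 17 17.8 and all chromosomes 9.97. The SEPTIN9 value there rests on 8 summits in 28 tiles, and its interval includes the value of chromosome 17. SEPTIN9 also had more GC-rich sequence than 7 of the other 8 members. A share of 55.3% of its tiles reached a GC content of 55%, against 21.5% in SEPTIN8, 29.0% in SEPTIN4, 7.11% in SEPTIN6, 5% in SEPTIN2, 3.06% in SEPTIN11, 2.21% in SEPTIN10 and 1.49% in SEPTIN7. SEPTIN5, at 100%, is GC-rich throughout but is only 9.722 kb long.

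**Figure D3:**
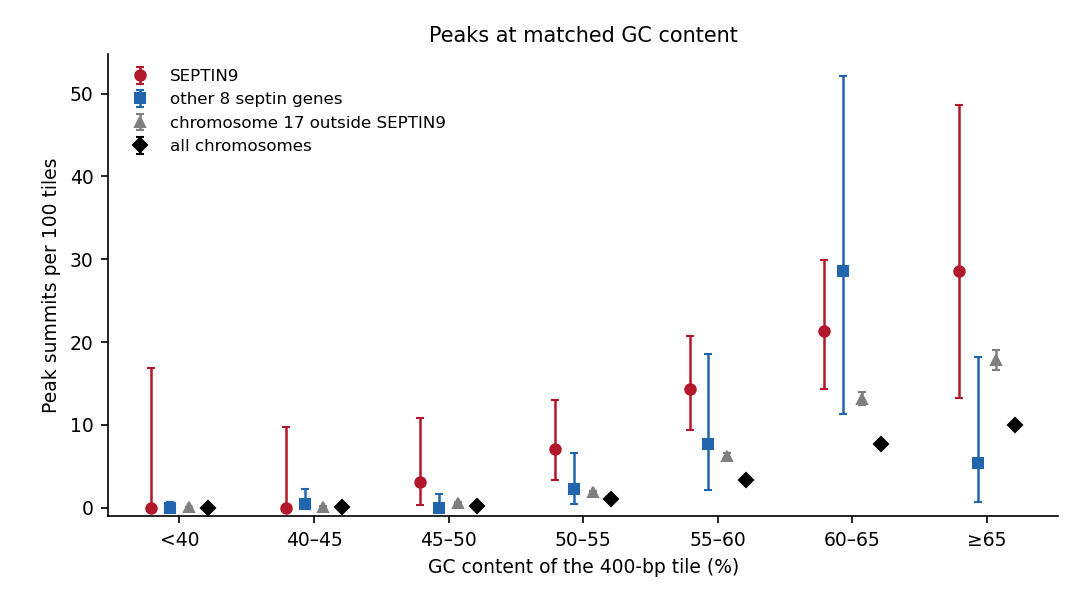
Peak summits per 100 tiles of 400 bp (vertical axis) by GC content of the tile in % (horizontal axis) for SEPTIN9, the other 8 septin genes, chromosome 17 outside SEPTIN9 and all chromosomes, with 95% exact binomial intervals. SEPTIN9 lies above chromosome 17 in every class from 45% GC upward, for example 14.4 against 6.26 at 55 to 60%.

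Along SEPTIN9 the peaks ran through nearly the whole gene. On the canonical transcript SEPTIN9-203, which has 12 exons, intron 1 (25.6 kb) held 7 peaks, intron 2 (94.9 kb) 25 and intron 3 (79.4 kb) 27. The density was 27.4, 26.4 and 34.0 peaks per 100 kb in these introns, and each stood 3.67 to 4.35 times above its number from GC content. The compact 3′ part, the 18.45 kb that carry exons 4 to 12 and encode most of the GTP-binding core, held 6 peaks, or 32.5 per 100 kb. The first 3 introns and the 3′ part thus differed little in density per 100 kb, which takes no account of GC content. In the 3′ part, introns 4, 7 and 10 held 1 peak each, at 1.61, 1.90 and 4.04 times their number from GC content. The other introns there held none, where GC content gave at most 0.253 peaks, in intron 8. Against GC content introns 4 and 7 were thus lower than the first 3 introns. No such ratio was taken for the 3′ part as a whole. The longest stretch without a summit, of 15.3 kb in intron 2, had a GC content of 43.4%, for which 0.146 peaks would be counted at genome-wide rates. The next gaps were 12.8 kb and 10.5 kb long at 53.4% and 55.6% GC.

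**Figure D4:**
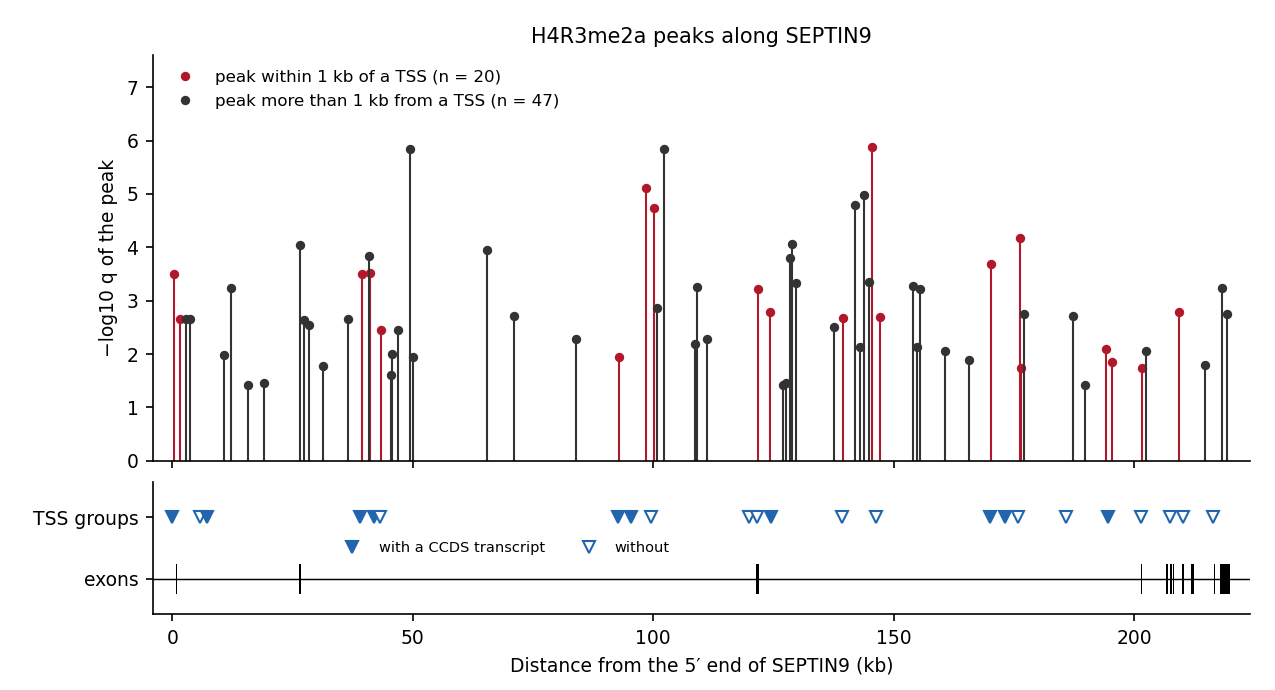
The −log10 q of each of the 67 SEPTIN9 peaks (vertical axis, upper panel) against the distance of its summit from the 5′ end of the gene in kb (horizontal axis), red within 1 kb of a TSS (20 peaks) and black beyond (47 peaks); below, 23 groups of TSSs, filled where a transcript has a consensus coding sequence, and the 12 exons of SEPTIN9-203. Peaks occur along the whole gene, and those of −log10 q above 5 lie near 49, 99, 102 and 146 kb.

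The SEPTIN9 peaks came in runs. The median distance between adjacent summits was 2052.5 bp, and 19 of the 66 distances were under 1 kb. When summits less than 2 kb apart were joined, 34 groups resulted, of which 9 had 3 or more summits and together held 35 of the 67. The largest run had 6 summits in 5190 bp in intron 3, between 141.936 and 147.125 kb from the 5′ end, with pileups of 14 to 22. Another had 4 summits in 3744 bp in intron 2, between 98.556 and 102.299 kb, with pileups of 17 to 22. Pileup is the caller's depth of H4R3me2a coverage at the summit.

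Most of the best supported SEPTIN9 peaks lay in these runs. The highest −log10 q, 5.88, belonged to 17:77426050-77426295 in intron 3, with a pileup of 22 over a background of 3.56 and a fold of 5.04. Its summit lay 782 bp upstream of the TSS of SEPTIN9-215. Second were 2 peaks of −log10 q 5.85, one at 17:77382793-77382949 with a pileup of 19, a background of 2.60 and a fold of 5.55, and one at 17:77329016-77330262 with a pileup of 22, a background of 3.59 and a fold of 5.02. The peak with a fold of 5.55 had the highest fold in the gene, and the other was the widest, at 1247 bp. Both were in intron 2 and more than 2 kb from any TSS. Next came 17:77379074-77379223, with a pileup of 22, a fold of 4.51 and a −log10 q of 5.12, and 17:77424209-77424611, with a pileup of 18, a fold of 5.03 and a −log10 q of 4.98. The next widest peaks, 17:77282776-77283532 at 757 bp and 17:77323622-77324093 at 472 bp, were low for this gene, with pileups of 10 and 11 against a median of 14.

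Individual SEPTIN9 peaks were modest in fold. The median fold, the authors' value for each peak, was 3.90 in SEPTIN9, 4.01 in the other members, 4.09 in the rest of chromosome 17 and 4.18 over all peaks, and no SEPTIN9 peak reached a fold of 6, as 3.51% of all peaks did. Fold is a ratio over background, so it does not rank the amount of the mark between places of unlike background. The median pileup was 14 in SEPTIN9 and 10 in the other members, with 12 on the rest of chromosome 17 and 10 over all peaks. No SEPTIN9 peak had a pileup under 9, while peaks of the whole list started at 5. By −log10 q the SEPTIN9 peaks were near the average, with a median of 2.68 against 2.41 in the other members and 2.53 over all peaks. Of the 67, 4 reached a −log10 q of 5, or 5.97%, against 3.84% of all peaks and none of the 16 in the other members. The peak intervals had a median width of 198 bp in SEPTIN9 and 195.5 bp in the other members.

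**Figure D5:**
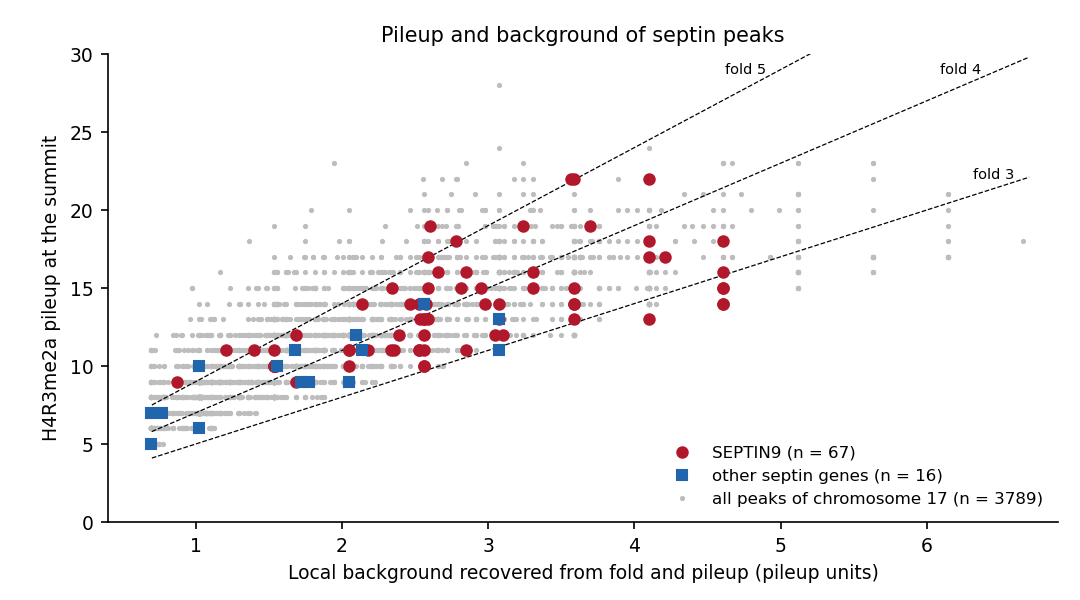
H4R3me2a pileup at the summit (vertical axis) against the local background recovered from fold and pileup (horizontal axis), both in units of pileup, for the 67 SEPTIN9 peaks (red), the 16 peaks of other septin genes (blue) and all 3789 peaks of chromosome 17 (grey); dashed lines mark equal fold. SEPTIN9 peaks sit at higher pileup and higher background (medians 14 and 2.59) than those of the other septin genes (medians 10 and 1.75), along the same lines of fold.

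Peaks near TSSs were a minority in SEPTIN9. Of its 67 peaks 20 had the summit within 1 kb of one of its TSSs, or 29.9% (95% exact binomial interval 19.3 to 42.3%). Of all peaks in protein-coding genes 39.3% lay within 1 kb of a TSS of any such gene. Over all these genes the windows cover 9.41% of sequence. Windows of 1 kb around the many TSSs of SEPTIN9 cover 21.7% of the gene. Its share of peaks was thus 1.38 times the share of sequence, and the interval includes the share of sequence. In the other members 10 of 16 peaks, or 62.5% (35.4 to 84.8%), were near a TSS, where windows cover 16.1% of sequence, a ratio of 3.89. With the TSSs of protein-coding transcripts alone the shares were 23.9% in SEPTIN9 and 37.5% in the other members, and in the upper 50% of peaks by −log10 q they were 35% and 42.9%. With windows of 500 bp they lay further apart, at 14.9% and 43.75%. At 1 kb around all TSSs the intervals of SEPTIN9 and the other members overlap. Of the 20 SEPTIN9 peaks near a TSS 13 lay downstream of it and 7 upstream. A further 44 peaks were in introns, 19 of the 67 being over 5 kb from any TSS, and the last 3 were in exons other than coding ones.

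Grouping TSSs less than 1 kb apart gave 23 groups in SEPTIN9, and 15 of them had a peak within 1 kb, against 7 of 34 groups in the other members. Peak density was 30.5 per 100 kb in SEPTIN9 and 3.37 in the other members, and the counts of groups were not adjusted for it. No share over the TSS groups of all genes was taken, so these counts are not read as a preference for start sites. In SEPTIN9 the GC content of the 1 kb around the first TSS of a group had a median of 60.6% in groups with a peak and 59.0% in groups without. In the other members these medians were 55.2% and 44.5%. Among the 10 SEPTIN9 groups that hold a transcript with a consensus coding sequence, 7 had a peak. Those without one were the groups of SEPTIN9-206 and SEPTIN9-207 at 7.322 kb, of SEPTIN9-205 at 95.352 kb and of SEPTIN9-246 at 173.256 kb from the 5′ end.

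The first promoter region, which includes the TSS of the canonical SEPTIN9-203, had 2 peaks on either side of it. The one at 17:77280839-77280997 had its summit 314 bp downstream of the first TSS, that of SEPTIN9-222, and upstream of the canonical one, with a pileup of 9 over a background of 0.875, a fold of 5.33 and a −log10 q of 3.49. It also lies in the divergent non-coding gene SEPTIN9-DT. Its neighbour at 17:77282040-77282284, 605 bp downstream of the canonical TSS in intron 1, had a pileup of 10, a fold of 4.34 and a −log10 q of 2.65. These were among the lowest pileups of the gene, whose median was 14. Both lie in the first CpG island, of 1656 bp and 69.6% GC. Of the 9 members, SEPTIN9 and SEPTIN8 had a peak within 1 kb of the canonical TSS, as did 21.4% of protein-coding genes.

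Alternative promoters in intron 2 of SEPTIN9 had peaks as well. At 17:77319975-77320133, 226 bp upstream of SEPTIN9-241 and in an untranslated exon, the pileup was 11, the fold 5.001 and the −log10 q 3.49. Its summit lay downstream of SEPTIN9-201, the transcript of the same group of TSSs that has a consensus coding sequence. At 17:77321707-77321945, 832 bp upstream of SEPTIN9-220, the pileup was 12, the fold 4.84 and the −log10 q 3.52. Around SEPTIN9-223 the strong peak at 17:77379074-77379223 lay 998 bp upstream, and 17:77380583-77380785 lay 608 bp downstream with a pileup of 17 and a −log10 q of 4.74.

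The most GC-rich island of SEPTIN9 had 1 peak, of low −log10 q. This island, of 1472 bp, 72.6% GC and 146 CpGs (17:77372704-77374175), spans TSSs of SEPTIN9-202 and SEPTIN9-227, 92.9 kb from the 5′ end. The peak inside it, 17:77373393-77373564, was 192 bp downstream of SEPTIN9-227 in a coding exon, with a pileup of 11, a background of 2.53, a fold of 3.40 and a −log10 q of 1.94. Of the 67 SEPTIN9 peaks 53 had a higher −log10 q.

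Several start sites in intron 3 had peaks on one side or on both. The group of SEPTIN9-246, at 173.256 kb from the 5′ end, and SEPTIN9-247, at 185.834 kb, had none within 1 kb. The TSS of SEPTIN9-211 had a peak 137 bp upstream (17:77404883-77405094, pileup 15, −log10 q 2.79), and that of SEPTIN9-235 one 189 bp downstream (17:77419951-77420182, pileup 13, −log10 q 2.68). SEPTIN9-215 had, besides the strongest peak of the gene upstream, one 738 bp downstream (17:77427615-77427822, pileup 14, −log10 q 2.69). At the group of SEPTIN9-208 and SEPTIN9-236 the summit of 17:77450778-77451186 lay 16 bp downstream of SEPTIN9-239 in an untranslated exon, with a pileup of 15 and a −log10 q of 3.68. SEPTIN9-238 had 2 peaks downstream, at 441 bp (17:77456627-77456902, pileup 19, −log10 q 4.17) and at 760 bp (17:77457035-77457267, pileup 15, −log10 q 1.75). SEPTIN9-204, the last start site with a consensus coding sequence, had peaks 610 bp upstream (17:77474507-77474658, pileup 11, −log10 q 2.10) and 776 bp downstream (17:77475971-77476271, pileup 12, −log10 q 1.85). SEPTIN9-215 and SEPTIN9-204 thus had peaks on both sides, SEPTIN9-211 had one upstream, and SEPTIN9-235 and SEPTIN9-238 had them downstream.

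Exons held few of the SEPTIN9 summits in number, but they are a small part of the gene. The summits lay in an exon of any isoform in 8 of the 67 peaks, and in coding sequence in 3. All 3 in coding sequence were also within 1 kb of a TSS and are counted among the 20 peaks there. The exons of SEPTIN9-203 make up 1.70% of its length and held 4 summits, against 62 in its introns. That is a larger share of the summits than of the length, though it rests on 4 peaks. Exon 3, the longest exon ahead of the last one at 645 bp and 66.98% GC, held the summit of 17:77402236-77402505, with a pileup of 14, a fold of 4.199 and a −log10 q of 3.22. Exon 4 held that of 17:77482182-77482340, with a pileup of 15 at the highest background among the SEPTIN9 peaks, 4.61, and a −log10 q of 1.75. Just beyond it, 17:77483019-77483164 lay in intron 4 of SEPTIN9-203 and in an exon of another isoform, with a pileup of 16, the same background and a −log10 q of 2.06. Exon 12, which carries the 3′ untranslated region, held 2 summits, in 17:77498886-77499034 (pileup 16, −log10 q 3.24) and 17:77499769-77500095 (pileup 17, −log10 q 2.74). All exon peaks of the 3′ part had pileups of 15 to 17, above the gene's median of 14, at backgrounds of 3.30 to 4.61.

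CpG islands accounted for few SEPTIN9 peaks. Windows of 200 bp with a GC content of at least 55% and a ratio of observed to expected CpG of at least 0.65 were joined where they overlapped or touched, and joined stretches of 500 bp or more were counted as islands. SEPTIN9 had 5 islands, and 4 of them held a summit. The island without a summit, 17:77451299-77452214, had a ratio of 0.640 over its whole length, since the limit applies to windows and not to the joined stretch. They held 5 of the 67 summits, or 7.46% (2.47 to 16.6%), in 2.50% of the sequence. In the other members 3 of 12 islands held a summit each, 3 of 16 peaks or 18.8% (4.05 to 45.6%) in 3.41% of the sequence. Islands that span a TSS had a summit in 3 of 3 cases in SEPTIN9 and in 3 of 9 in the other members. The start-site islands of SEPTIN2, SEPTIN6, SEPTIN7, SEPTIN10 and SEPTIN11 held none, although their GC contents lay between 64.2% and 73.9%. Within 200 bp on either side of the summit the median ratio of observed to expected CpG was 0.295 in SEPTIN9 and 0.261 in the other members, against 0.298 for all peaks. It reached 0.6 in 6 of 67 peaks in SEPTIN9, or 8.96%, in 4 of 16 in the other members and in 13.7% of all peaks. The GC content over the same span had a median of 60.1% in SEPTIN9, 61.0% in the other members and 59.6% over all peaks.

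The 7 peaks of SEPTIN8, a filament subunit of the SEPTIN6 group on chromosome 5, ran from upstream of the canonical SEPTIN8-207 into intron 9. Of these 5 lay within 1 kb of a TSS, and none lay in exon 10, the last one. The highest −log10 q, 2.87, belonged to 5:132765255-132765747, which was 493 bp wide, had its summit in exon 2 and lay 6 bp from the TSS of SEPTIN8-202, with a pileup of 12 and a fold of 4.203. Next were 5:132773111-132773338 in intron 1, with a pileup of 10 and a −log10 q of 2.65, and 5:132777750-132777887 in the promoter island, with a pileup of 7, a background of 0.771 and a −log10 q of 2.49. It was 68 bp downstream of SEPTIN8-210 and upstream of the canonical TSS. The pileups of the other 4 were 6, 9, 9 and 13.

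SEPTIN5, a gene of 9.722 kb on chromosome 22, had 4 peaks, or 41.1 per 100 kb, the highest density of the 9. Its canonical start site, in an island of 77.5% GC, had none. At 22:19718798-19718928, in an internal island 438 bp downstream of SEPTIN5-208, the pileup was 11, the fold 3.82 and the −log10 q 2.33. At 22:19721185-19721500 in intron 8 the pileup was 14 and the −log10 q 3.23. Both of these summits also lie in the overlapping protein-coding gene ENSG00000284874, so that they cannot be given to SEPTIN5 alone. The other 2, 22:19716023-19716334 and 22:19716501-19716703 in intron 2, had pileups of 11 and 9 and a −log10 q of 2.99 and 1.87.

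SEPTIN4 on chromosome 17 had its 2 peaks at internal start sites in intron 3 of the canonical transcript, and none at the canonical TSS. The summit of 17:58528960-58529087 lay 269 bp downstream of SEPTIN4-212, with a pileup of 14, a fold of 4.21 and a −log10 q of 3.23. That of 17:58531750-58532011, 27 bp upstream of SEPTIN4-218 in an island of 73.1% GC, had a pileup of 11, a fold of 2.95 and a −log10 q of 1.41. Both also lie in the antisense gene SEPTIN4-AS1.

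SEPTIN2 had a single peak, 2:241317570-241317889 in intron 1, which had the lowest GC content of the 83 over the 400 bp around its summit, 39.9%, with a pileup of 10, a background of 1.02, a fold of 5.43 and a −log10 q of 3.76. It was the highest −log10 q among the other 8 members. Its summit lay 1637 bp downstream of SEPTIN2-210, beyond the large start-site island, which had none.

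SEPTIN6 on the X chromosome had 2 intronic peaks more than 14 kb from any TSS. X:119672174-119672307 had a pileup of 7, a fold of 4.71 and a −log10 q of 2.65, and X:119678512-119678653 a pileup of 5, a fold of 3.53 and a −log10 q of 1.41. Both were called over the lowest background of the whole list, 0.697, and they were the only peaks in a long part of the X chromosome. The nearest others lay 11.9 Mb before and 9.94 Mb after the gene. The X chromosome had 177 peaks in all, 0.531% of the list.

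Around the limits of the rule, the first SEPTIN9 summit inside, 314 bp into the gene, had a pileup of 9 and a fold of 5.33. The nearest summit outside lay 1144 bp before the first TSS (17:77279400-77279549, pileup 10, fold 5.43, −log10 q 3.76). At the 3′ end the last summit lay 219.219 kb from the 5′ end, and the next one was 5.894 kb beyond the gene with a pileup of 10. Near start sites, the SEPTIN9 summits closest to the 1 kb limit were at 998 bp (pileup 22) inside it and at 1082 bp outside it, in 17:77321353-77321538 (pileup 14). Apart from SEPTIN9-DT, SEPTIN9 shares 2 of its 67 summits with other annotated genes, all of them non-coding or of unclear status.

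Of the 9 members 4 (SEPTIN9, SEPTIN8, SEPTIN5 and SEPTIN4) had a peak within 1 kb of any TSS, as did 31.6% of protein-coding genes. Among 16 genes for septin partners, 13 (81.3%) had a peak in the gene or near a TSS, against 47.2% of all protein-coding genes, and 11 had one within 1 kb of a TSS, against 31.6%. These genes had a median length of 60.1 kb, against 27.5 kb for all protein-coding genes, and the shares were not adjusted for length. Their 44 peaks were 1.75 times the number from GC content. MYH9, the heavy chain of a non-muscle myosin that septins scaffold at the furrow, led with 12, followed by ARHGEF18, a guanine nucleotide exchange factor for RhoA that binds SEPTIN9, with 7. CDC42EP4, a CDC42 effector of the family that binds septins, and MYH10, another non-muscle myosin, had 4 each. None came near SEPTIN9 in count. By density CDC42EP2 and CDC42EP1, short genes with 3 peaks each, were above SEPTIN9, at 39.7 and 33.6 per 100 kb against 30.5. The other partners were less dense than SEPTIN9. Among 7 other genes whose DNA methylation serves as a marker of colorectal cancer in stool or blood, NDRG4 alone had peaks, 8 in all, which is 14.3% of the 7 genes against 47.2% of all protein-coding genes. BMP3, IKZF1, SDC2, SFRP2, TFPI2 and VIM had none, and the 7 genes together had 1.04 times their number from GC content.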

How the data were processed

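The authors deposited 1 list of peaks for the H4R3me2a library against the input library. The submitters' processing notes name Bowtie2, MACS2, deepTools and GRCh38; no source used here gives versions, parameters or read totals, so the depth is unknown beyond the pileup. Per the file headers, each peak has a pileup (the signal at the summit), a fold ratio over local background, a −log10 p and a −log10 q, all the authors' own values. They serve here to describe and rank peaks of this list, not to compare the amount of the mark. The background was recovered here as (pileup + 1) / fold − 1, which gave back the −log10 p within 0.05 for all 33353 peaks.

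Peaks were assigned to GENCODE release 44 genes by summit. No peak ended beyond a GRCh38 chromosome. Only the 33349 peaks on chromosomes 1 to 22 and X entered comparisons. Numbers from GC content used 400-bp tiles in bins of 2 percentage points, with peaks of SEPTIN9 included in the rates, and the calculation was tested on simulated data. CpG islands were searched with 200-bp windows within each gene and 1 kb around its TSSs, so an island may be cut at that edge. Shares have exact Clopper-Pearson intervals and counts exact Poisson intervals, at 95%. The members, lists and descriptions were chosen with earlier results of these data known. Peaks named are, in SEPTIN9, the 5 with the highest −log10 q, the 3 widest and all within 1 kb of a protein-coding transcript's TSS or in an exon; in other members all, or the 3 with the highest −log10 q where there were over 6. Python 3.11.15, numpy 2.4.6, pandas 2.3.3, scipy 1.17.1 and pysam 0.24.0 were used.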

Additional observations from a re-analysis of the deposited data

How the results depend on the processing

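No paired analysis was possible because each kind of library had 1 sample. The peak set decided the counts, since stricter sets hold fewer peaks. At a −log10 q of 5 (1280 peaks) SEPTIN9 had 4 peaks (1.82 per 100 kb) and the other members 0, so its share was 100%, with 50% of its peaks near a TSS and 1 septin gene with such a peak. At a fold of 4 (19691 peaks) the counts were 27 in SEPTIN9 (12.3 per 100 kb) and 8 in the other members. In the upper 50% by −log10 q they were 40 (18.2 per 100 kb) and 7. Merging peaks less than 1 kb apart left 44 in SEPTIN9 (19.998 per 100 kb) and 14 in the other members. Assigning peaks by any overlap, or by the gene body alone, gave 67 and 16 again. The window decided the share near a TSS. It was 14.9% in SEPTIN9 and 43.75% in the other members with 500 bp, and 58.2% and 87.5% with 3 kb. With the canonical TSS alone it was 2.99% and 12.5%, when 2 septin genes had such a peak. SEPTIN9 kept the highest count among genes of similar length in the sets tried except that of −log10 q 5, where it had more than 99.96% of them. Of 56 alternatives 36 left the value within 1.5 times or within its interval. Counts of 1 or 2 peaks, as in SEPTIN2, SEPTIN4 and SEPTIN6, limit the precision of the values for these members.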
